A study of Mus musculus with 6 samples.

Results

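The genes described here handle lipoproteins and move cholesterol out of cells: the apolipoprotein genes *Apoe* and *Apoc1*, the receptor genes *Lrp1* and *Scarb1*, the lipase gene *Lpl* and the lipid transfer gene *Pltp*, the efflux transporter genes *Abca1* and *Abcg1*, and *Nr1h2* and *Mylip*, which encode the sterol-sensing receptor LXR-beta and a ubiquitin ligase that LXRs induce. They are 10 of the 23282 rows in the files, taken by gene symbol. They were selected on earlier results of the same genotype comparison in these counts, so their levels and fold changes are given as a description without p-values. Liver sinusoidal endothelial cells (LSECs), whose pores let plasma through to hepatocytes, came from *Txnip-/-* mice, which lack the gene in all tissues on a C57BL/6J background, and from C57BL/6J mice as WT controls. Cells of both genotypes were prepared by collagenase perfusion, a density gradient and selection with anti-CD146 magnetic beads. Each genotype had 3 libraries. The feeding experiments of the study used young adult mice of both sexes, but for the mice of these libraries the age, the sex, the number per library and the time in culture before RNA extraction are not given in the sources used here. Because nothing ties a library to a mouse, the p-values given for other genes measure the spread between libraries, which may be technical.

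Lipoproteins carry cholesterol and triglyceride through the blood on a coat of apolipoproteins. Apolipoprotein E is the ligand through which remnant particles bind receptors such as LRP1, and apolipoprotein C1 modulates lipases and receptor binding on the same particles. Lipoprotein lipase cuts triglyceride at the vessel wall, where GPIHBP1 holds it on capillary endothelium and ANGPTL4 inhibits it. ABCA1 and ABCG1 pass cholesterol to apolipoprotein A1 and to HDL, and oxysterol-bound LXRs turn on their genes and those for apolipoprotein E and MYLIP (IDOL), which marks lipoprotein receptors for degradation. In the liver, hepatocytes and macrophages are the main producers of apolipoprotein E, and macrophages also express *Lrp1*, *Lpl* and *Abca1*.

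To show where these genes start, the 250 bases before the transcription start are given for *Apoe*, *Mylip* and *Lrp1*, which had lower levels in *Txnip-/-* LSECs, and for the efflux transporter gene *Abca1*. Of the 10 genes, 6 had a promoter entry (RefSeq, GRCm38.p6). The *Apoe* window lies at chr7:19699189-19699438 on the minus strand and the *Mylip* window at chr13:45389492-45389741 on the plus strand. The *Lrp1* window lies at chr10:127621149-127621398 and the *Abca1* window at chr4:53159896-53160145, both on the minus strand. Capitals mark exact matches on either strand to the TATA box (TATAAA), the CAAT box motif (CCAAT), the GC box of Sp1 factors (GGGCGG), the E-box of basic helix-loop-helix factors (CACGTG), the half-site of nuclear receptors (AGGTCA) and a core shared by PU.1 and other ETS factors (GAGGAA). No match overlapped another in these windows.
Apoe: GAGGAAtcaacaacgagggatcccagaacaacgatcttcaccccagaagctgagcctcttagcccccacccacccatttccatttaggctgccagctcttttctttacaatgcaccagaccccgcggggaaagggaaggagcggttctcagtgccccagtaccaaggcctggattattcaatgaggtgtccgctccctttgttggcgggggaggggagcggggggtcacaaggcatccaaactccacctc
Mylip: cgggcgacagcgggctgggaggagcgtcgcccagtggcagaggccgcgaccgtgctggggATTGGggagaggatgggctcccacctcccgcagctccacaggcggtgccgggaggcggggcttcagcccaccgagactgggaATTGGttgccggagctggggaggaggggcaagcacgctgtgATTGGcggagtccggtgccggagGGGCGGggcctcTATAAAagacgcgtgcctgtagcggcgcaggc
Lrp1: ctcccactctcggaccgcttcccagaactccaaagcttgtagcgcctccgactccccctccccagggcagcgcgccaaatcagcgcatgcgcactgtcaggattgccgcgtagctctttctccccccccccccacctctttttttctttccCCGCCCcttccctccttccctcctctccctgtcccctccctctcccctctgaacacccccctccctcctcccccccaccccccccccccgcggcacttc
Abca1: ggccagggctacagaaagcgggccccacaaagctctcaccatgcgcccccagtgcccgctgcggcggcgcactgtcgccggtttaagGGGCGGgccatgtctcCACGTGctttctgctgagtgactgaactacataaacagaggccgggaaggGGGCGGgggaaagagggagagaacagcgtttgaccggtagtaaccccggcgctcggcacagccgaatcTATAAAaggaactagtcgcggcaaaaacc
The *Apoe* window held 1 match, to GAGGAA at its far end, a core found in 23.3% of 32817 windows of the same length. The *Mylip* window held a TATA box 32 bases before the start, a GC box at 44 bases and 3 matches to CCAAT, and 71.2% of its bases were G or C, against a median of 52.4% over all windows. The *Lrp1* window held 1 GC box (32.7% of all windows). The *Abca1* window held a TATA box 29 bases before the start, 2 GC boxes and 1 E-box, which 12.4%, 32.7% and 6.02% of all windows hold. None of the 6 windows held AGGTCA, found in 14% of all windows. In these exact letters, the DR4 repeat that LXR dimers bind (2 such half-sites with 4 bases between them) was thus absent from these 6 windows. It stood in 0.0152% of all windows. Half-sites that differ from AGGTCA in any base were not searched for, so these windows may still hold an LXR site. These are matches of letters, and binding was not measured.

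The counts of the 6 libraries summed to between 9147764 and 10193952. *Txnip* had 191 to 269 counts in the *Txnip-/-* libraries and 1901 to 2019 in the WT libraries, so the labels matched the genotype in all 6. LSEC markers were abundant in every library, with a summed level over 10 genes of 4479 to 4893 CPM in *Txnip-/-* libraries. The sum was 6755 and 6907 CPM in WT replicates 1 and 2 and 5165 CPM in WT replicate 3. WT replicate 3 stood apart from the other WT libraries. The ribosomal RNA precursor row *Rn45s* took 17.8% of its counts, close to the 16.8% to 18.6% of the *Txnip-/-* libraries, against 10.03% and 9.68% in WT replicates 1 and 2. Over genes with a mean of 10 counts or more, a chi-square of the counts per degree of freedom was 3.93 for WT replicates 1 and 2, the smallest of all pairs. It was 37.0 and 40.2 for WT replicate 3 against these 2 libraries and 13.3 to 17.1 for WT replicate 3 against the *Txnip-/-* libraries, so by this measure it was closer to the other genotype than to its own. The chi-square includes the *Rn45s* row, so it is not separate from the *Rn45s* share. How much of it comes from that row was not tested.

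The mean level of each of the 10 genes was lower in *Txnip-/-* than in WT LSECs, and over all genes tested 50% had a log2 fold change (log2FC, *Txnip-/-* against WT) below 0. Levels are CPM, the counts per 1000000 counts of a library scaled by TMM factors, and QuantSeq reads come from the 3' end of a transcript, so a level does not grow with transcript length. Together the 10 genes summed to 611 ± 5.50 CPM in *Txnip-/-* LSECs against 1044 ± 37.6 CPM in WT LSECs (mean ± SD, n = 3 libraries each). *Apoe* alone made up 42.1% to 45.5% of this sum in the *Txnip-/-* libraries and 51.1% to 52.2% in the WT libraries. Without *Apoe* the other 9 genes summed to 343 ± 11.3 and 504 ± 14.7 CPM, so the lower sum was not *Apoe* alone. The largest log2 differences were those of *Lrp1* and *Lpl*, and the smallest those of *Scarb1*, *Abcg1* and *Nr1h2*. In the fit over 11583 genes (edgeR's quasi-likelihood test), 4 of the 10 were among the genes called (adjusted p below 0.05 with a fold of more than 1.3), namely *Apoe*, *Lpl*, *Mylip* and *Lrp1*. Of all genes tested, 1.44% were called, 0.932% as lower in *Txnip-/-* LSECs. For 7 of the 10, the highest *Txnip-/-* level was under the lowest WT level, as for 8.94% of all genes. The median log2FC was -0.51 over the 10 genes and 0.00 over all genes tested. As the genes were chosen with this comparison known, nothing is read from these counts. The 4 calls were present in each of the 15 alternative settings, including each library left out in turn. These settings reuse the same 6 libraries and are no independent support. The setting with no limit on the fold change keeps every main call by construction.

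**Figure D1:**
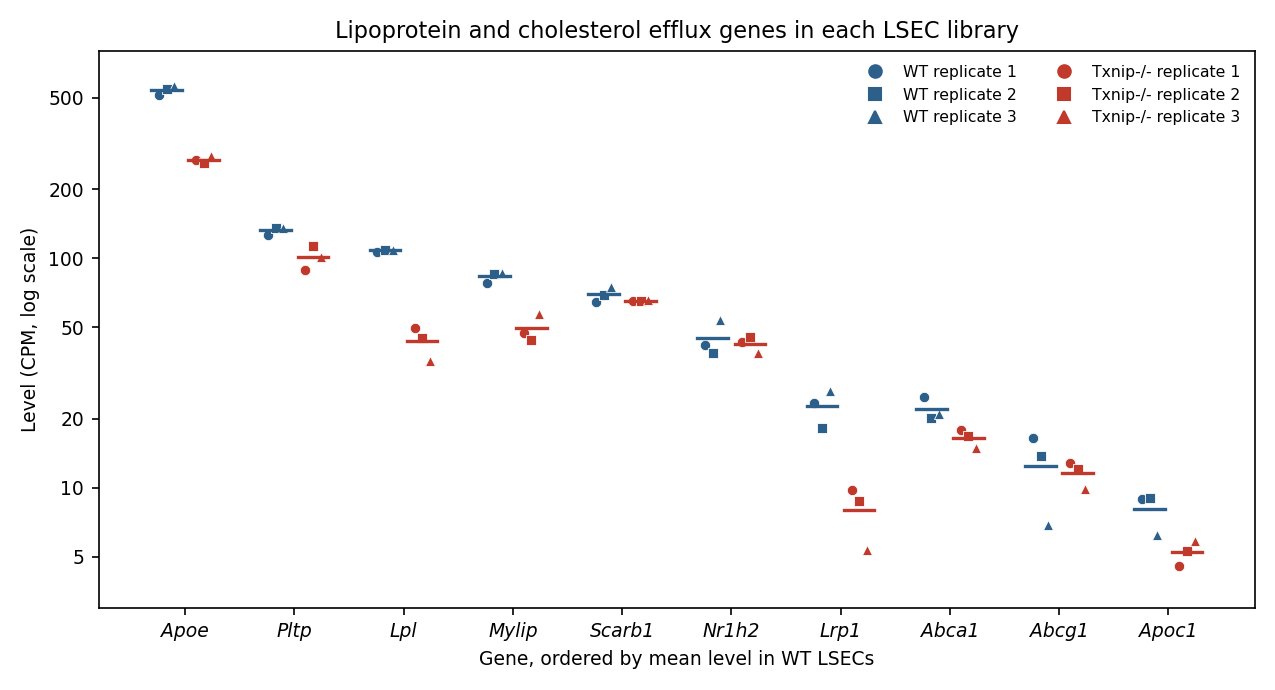
The level of each of the 10 genes in CPM on a log axis, with 1 symbol per library and a bar at the mean of each genotype (blue, WT LSECs; red, Txnip-/- LSECs). Apoe stood highest in both genotypes, near 540 CPM in WT and 268 CPM in Txnip-/- LSECs, and the symbols of the genotypes were interleaved for Scarb1, Nr1h2 and Abcg1.

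**Figure D2:**
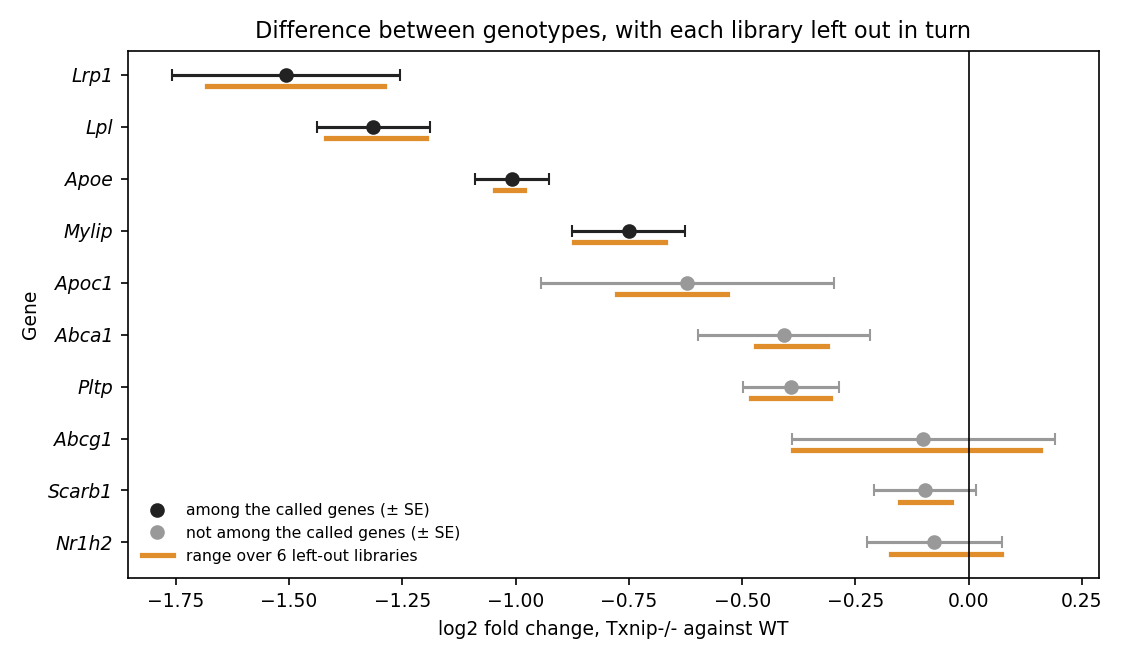
The log2 fold change of each gene (Txnip-/- against WT), with the standard error as the horizontal bar and, in orange, the range when each of the 6 libraries was left out in turn. Black points are among the called genes, and the orange ranges of Abcg1 and Nr1h2 crossed 0.

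Markers of macrophages moved in the same direction. Of 16 Kupffer cell and macrophage genes, 15 passed the filter on low counts, all 15 were lower in *Txnip-/-* LSECs and 14 were called (median log2FC -1.48). Their summed level was 341 to 376 CPM in the *Txnip-/-* libraries and 842 to 881 CPM in the WT libraries. *Marco*, *Cd5l* and *Vsig4*, the 3 of highest level, fell from 175 ± 3.86 to 83.2 ± 7.12, from 131 ± 6.69 to 65.7 ± 2.03 and from 76.4 ± 7.85 to 27.4 ± 4.71 CPM (edgeR adjusted p = 5.23e-06, 1.55e-05 and 1.18e-05, log2FC -1.07, -0.99 and -1.48, lower in 3 of 3 *Txnip-/-* libraries than in any WT library). *Timd4*, the remaining gene of the list, was below the filter, and no gene of the list was at 0 in every library. *Clec4f* was the 1 tested gene not called (edgeR adjusted p = 0.0917, log2FC -1.14 ± 0.31 SE, lower in 3 of 3 libraries), and the 14 called genes had log2FC from -2.07 (*Cd163*) to -0.75 (*Cd68*). Part of these results was already known when the list was written. The hepatocyte list (13 genes) summed to 50.3 to 62.1 CPM in *Txnip-/-* and 49.5 to 55.0 CPM in WT libraries, and its 8 genes above the filter gave 4 higher, 4 lower and no call, with *Tat* at 0 in every library. In edgeR, 0 of these 8 genes had an unadjusted p under 0.05. The stellate cell list (10 genes) was higher in *Txnip-/-* LSECs, with sums of 47.8 to 64.0 against 24.4 to 31.7 CPM, and *Dcn* was its 1 called gene (log2FC 0.99 ± 0.18 SE, edgeR adjusted p = 0.00498, higher in 3 of 3 libraries). Neutrophil and lymphocyte lists had no gene above the filter, and the cholangiocyte list summed to 5.02 to 7.34 and 2.92 to 7.83 CPM. Of the LSEC list, all 10 genes had a log2FC below 0, from -0.83 to -0.04 (median -0.32). For 3 of the 10 every *Txnip-/-* library was below every WT library, as for 8.94% of all genes. *Stab1*, a scavenger receptor of sinusoidal endothelium, was called (253.8 ± 16.1 against 349 ± 24.2 CPM). At an unadjusted p under 0.05 in edgeR, 6 of these 10 genes were lower, against 6.05% of all genes. Called as lower were 1 of the 10 and 0.932% of all genes. In such bulk samples fewer cells of a type and less RNA per cell cannot be told apart.

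As a ratio to the summed counts of the macrophage markers, a list that holds none of the 10 genes, *Apoe* was at 74.4% to 76.4% in the *Txnip-/-* libraries and 58.3% to 64.9% in the WT libraries, so *Apoe* was less reduced than the marker sum. The same held for *Mylip*, at 12.9% to 15.2% against 8.84% to 10.2%. This holds for the sum and not for each marker, as the tested markers had log2FC from -2.07 (*Cd163*) to -0.75 (*Cd68*). *Apoe*, at -1.01, lay inside that range and *Mylip*, at -0.75, beside its upper end. For *Lpl* the ratios of the genotypes overlapped, with 9.53% to 14.2% in *Txnip-/-* and 12.1% to 12.9% in WT libraries, and likewise for *Lrp1* with 1.42% to 2.82% and 2.16% to 3.04%. The part of macrophage RNA in the lower level of these 4 genes was not tested.

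**Figure D3:**
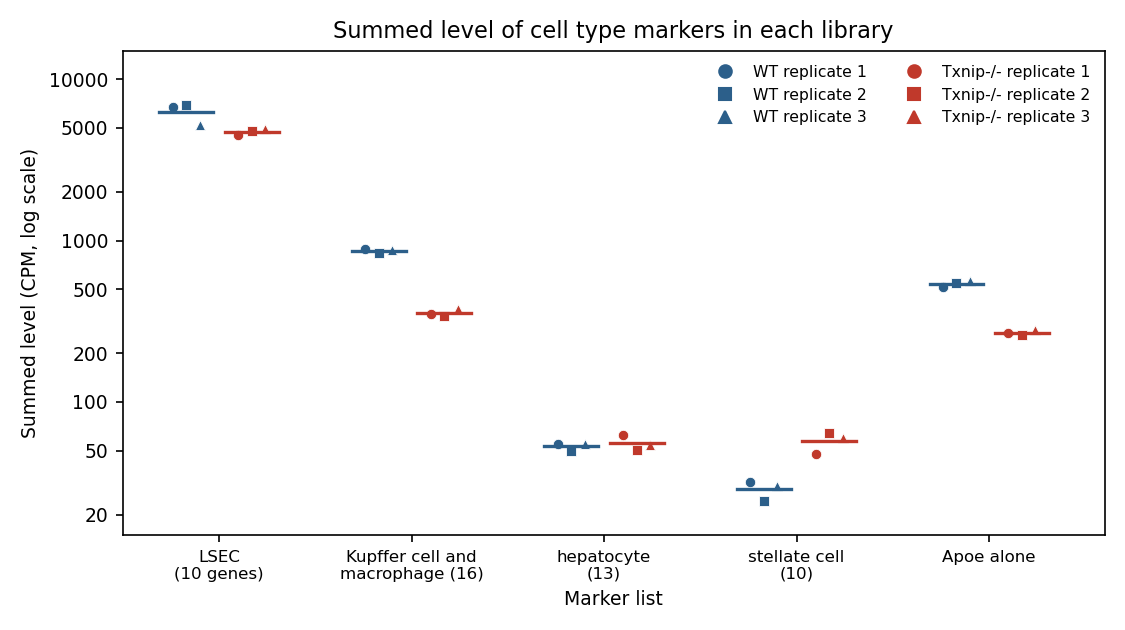
The summed CPM of 4 lists of cell type markers and, at the right, the level of Apoe, on a log axis with 1 symbol per library and a bar at each mean. The macrophage sum of the Txnip-/- libraries (341 to 376 CPM) lay below that of every WT library (842 to 881 CPM), as did Apoe, while the hepatocyte sums overlapped.

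*Apoe* encodes the main ligand of remnant lipoproteins. In GRCm38 its 4 exons span bases 19696109 to 19699188 of chromosome 7 on the minus strand, and exon 4 holds the 3' untranslated region (GENCODE M21). Its counts were 2388, 2540 and 2616 in *Txnip-/-* replicates 1, 2 and 3 and 5277, 5735 and 5296 in the WT replicates, or 267, 259 and 280 CPM against 514, 546 and 560 CPM. The genotypes were far apart, and the WT library that stood apart elsewhere had the highest level. This was a log2FC of -1.01 ± 0.08 SE, or 49.7% of the WT level, and it lay between -1.05 and -0.98 with each library left out. By mean level *Apoe* ranked 198th of the 11583 genes in WT LSECs and 575th in *Txnip-/-* LSECs. *Apoc1*, its neighbour, ends its annotated span 3448 bases away on the same strand (chromosome 7, 19689481 to 19692660). It had 41, 52 and 55 counts in *Txnip-/-* libraries and 92, 95 and 59 in WT libraries, the lowest level of the 10 genes. Its levels were 4.58, 5.30 and 5.88 CPM against 8.96, 9.05 and 6.24 CPM, so WT replicate 3 was close to the *Txnip-/-* libraries. The 59 counts of WT replicate 3 have an exact 95% Poisson interval of 44.9 to 76.1, which takes in the 52 and 55 counts of 2 *Txnip-/-* libraries and covers counting error only. Its log2FC was -0.62 (SE 0.32), outside the calls. The ratio of *Apoe* to *Apoc1* counts was 58.2, 48.8 and 47.6 in *Txnip-/-* libraries and 57.4, 60.4 and 89.8 in WT libraries, so the genotypes overlapped in this ratio.

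No other apolipoprotein gene was called. Of 13 listed, 6 passed the filter and all 6 had higher means in *Txnip-/-* LSECs, 2 of them at an unadjusted p under 0.05 in edgeR (over all genes tested, 5.48% were higher and 6.05% lower at that threshold), with a median log2 fold change of 0.28. *Apoa1*, the main protein of HDL, was at 13.3 ± 3.60 CPM in *Txnip-/-* and 8.60 ± 0.25 CPM in WT LSECs (log2FC 0.63 ± 0.26 SE, edgeR adjusted p = 0.346, higher in 3 of 3 libraries). *Clu* (apolipoprotein J) was at 13.3 ± 1.05 and 12.7 ± 2.04 CPM and *Apoc2*, the cofactor of lipoprotein lipase, at 4.53 ± 1.64 and 4.16 ± 1.305 CPM, both within the spread between libraries. The sign of *Apoc2* turned without *Txnip-/-* replicate 1 or WT replicate 1 (log2FC -0.16 and -0.10), and that of *Clu* in 3 alternatives, among them no normalization factors (-0.01) or without WT replicate 2 (-0.01). The hepatocyte markers of highest level, *Alb*, *Trf* and *Ahsg*, were at 20.3, 13.8 and 4.99 CPM in *Txnip-/-* and 22.4, 11.1 and 5.79 CPM in WT LSECs, so the level of *Apoe* exceeded that of each of them in both genotypes.

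*Lrp1* encodes a large endocytic receptor for apolipoprotein E-bearing remnants. It lies on chromosome 10 from 127538161 to 127621148 on the minus strand and has 89 exons. It had 88, 86 and 50 counts in *Txnip-/-* libraries and 241, 191 and 250 in WT libraries, or 9.83, 8.77 and 5.35 CPM against 23.5, 18.2 and 26.4 CPM. All 3 WT libraries were above all 3 *Txnip-/-* libraries, and *Txnip-/-* replicate 3 was the lowest. This gave a log2FC of -1.51 (SE 0.25, range -1.68 to -1.29 with each library left out), or 35.2% of the WT level, the largest difference of the 10 genes. The 50 counts of *Txnip-/-* replicate 3 have an exact 95% Poisson interval of 37.1 to 65.9. *Scarb1* (chromosome 5, 125277087 to 125341094), the HDL receptor that also takes up cholesteryl ester, had 580, 639 and 614 counts against 663, 728 and 711. Its levels were nearly equal in the *Txnip-/-* libraries at 64.8, 65.1 and 65.6 CPM, and 64.5, 69.4 and 75.2 CPM in the WT libraries, so the genotypes overlapped (log2FC -0.10 ± 0.11 SE).

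Of 15 other genes of lipoprotein receptors and their partners, 11 passed the filter, 3 were higher and 8 lower, and none was called, with 1 lower at an unadjusted p under 0.05 in edgeR (6.05% of all genes) (median log2FC -0.13). *Lrp6*, a Wnt coreceptor, was at 77.0 ± 2.31 and 83.9 ± 7.32 CPM, with overlap between the genotypes (log2FC -0.13 ± 0.11 SE, edgeR adjusted p = 0.740). Of the 7 scavenger receptor genes, 5 were lower and 2 higher, and 1 was called, as lower (0.932% of all genes). At an unadjusted p under 0.05 in edgeR, 3 of the 7 were lower (6.05% of all genes). *Msr1*, the class A scavenger receptor of macrophages, fell from 35.1 ± 2.02 to 16.8 ± 1.84 CPM (log2FC -1.06 ± 0.17 SE, edgeR adjusted p = 0.00174, lower in 3 of 3 libraries). *Cd36*, which takes up fatty acids and oxidized LDL, was at 41.8 ± 7.17 and 61.7 ± 4.82 CPM, lower in 3 of 3 libraries, and missed the threshold (log2FC -0.56 ± 0.14 SE, edgeR adjusted p = 0.0599), and it was called without WT replicate 3 (edgeR adjusted p = 0.0425, log2FC -0.58), with no normalization factors (edgeR adjusted p = 0.0337, log2FC -0.65), with no filter on low counts (edgeR adjusted p = 0.00642, log2FC -0.57) and with DESeq2 (adjusted p = 0.0231, log2FC -0.56), but in none of the other 11 alternatives. *Scarb2*, a lysosomal membrane protein, was at 131 ± 5.70 and 151 ± 7.45 CPM (log2FC -0.21 ± 0.09 SE, edgeR adjusted p = 0.409). *Scarf1*, an endothelial scavenger receptor, was at 32.2 ± 3.87 and 34.3 ± 4.51 CPM, with overlap and a sign that turned in 3 alternatives. The macrophage marker sums given above moved with *Msr1*, and their part in its lower level was not tested.

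*Lpl*, which encodes lipoprotein lipase, lies on chromosome 8 from 68880491 to 68907448 on the plus strand, with 10 exons. It had 444, 441 and 335 counts in *Txnip-/-* libraries and 1095, 1142 and 1029 in WT libraries. The levels were 49.6, 45.0 and 35.8 CPM in *Txnip-/-* and 107, 109 and 109 CPM in WT LSECs, with WT libraries that differed little from each other. This gave a log2FC of -1.31 (SE 0.12, range -1.42 to -1.20 with each library left out), or 40.2% of the WT level. By mean level *Lpl* ranked 1709th in WT and 4025th in *Txnip-/-* LSECs. *Gpihbp1*, which anchors the lipase on endothelium and was picked for description after its values were seen, was at 48.4 ± 6.73 CPM in *Txnip-/-* and 49.5 ± 4.24 CPM in WT LSECs (log2FC -0.03 ± 0.14 SE, edgeR adjusted p = 0.957), with a range of -0.14 to 0.06 when each library was left out. *Lpl* counts per *Gpihbp1* count were 1.02, 0.82 and 0.86 in *Txnip-/-* libraries and 1.96, 2.33 and 2.30 in WT libraries, without overlap. With *Gpihbp1* nearly equal between the genotypes, this ratio restates the difference of *Lpl* and is no further result. *Angptl4*, the lipase inhibitor, rose from 24.2 ± 2.02 to 39.8 ± 1.92 CPM (log2FC 0.71 ± 0.15 SE, edgeR adjusted p = 0.0192, higher in 3 of 3 libraries). It stayed called without WT replicate 3, whereas its adjusted p was 0.0534 to 0.153 with each of the other 5 libraries left out (edgeR, log2FC 0.65 to 0.75). *Lmf1*, the chaperone that folds the lipase, was at 14.0 ± 2.14 and 16.8 ± 2.45 CPM, within the spread between libraries.

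**Figure D4:**
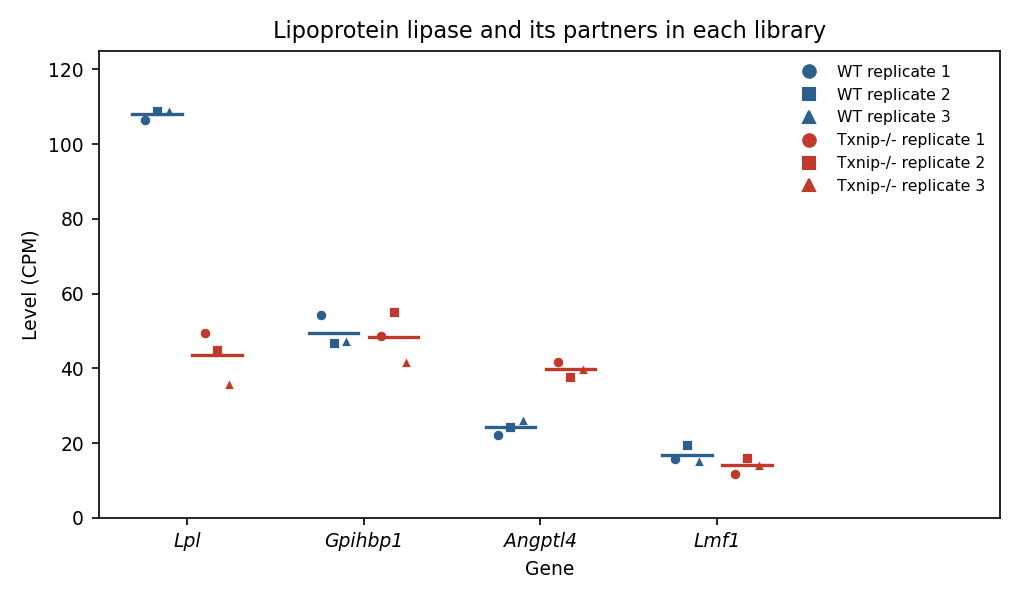
The level of Lpl and of 3 genes whose products act on the lipase, in CPM on a linear axis from 0, with 1 symbol per library and a bar at each mean (blue, WT LSECs; red, Txnip-/- LSECs). Lpl was lower and Angptl4 higher in every Txnip-/- library than in any WT library, while Gpihbp1 and Lmf1 overlapped.

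*Pltp* (chromosome 2, 164839518 to 164857711) encodes the protein that moves phospholipid onto HDL. It had 792, 1110 and 948 counts against 1300, 1427 and 1279, or 88.4, 113 and 101 CPM in *Txnip-/-* and 127, 136 and 135 CPM in WT LSECs. The genotypes did not overlap, with a spread in the *Txnip-/-* libraries more than that in the WT libraries, and the log2FC was -0.39 (SE 0.11), outside the calls. *Pltp* entered the calls with DESeq2, with no normalization factors and with no filter on low counts (log2FC -0.39, -0.48 and -0.40). The last exon of *Pltp*, 311 bases long, overlaps an exon of *Ctsa* on the opposite strand, so without strand in the counting its reads could not be told apart from those of *Ctsa*, which had 132 ± 13.7 and 163 ± 5.34 CPM. Among the other 11 lipase genes and partners, 7 passed the filter, with 3 higher, 4 lower and 2 called. Of these 2, 1 was called as higher (0.509% of all genes) and 1 as lower (0.932% of all genes). *Lipa*, the lysosomal acid lipase that frees cholesterol from endocytosed lipoproteins, fell from 115 ± 8.66 to 83.7 ± 6.29 CPM (log2FC -0.46 ± 0.11 SE, edgeR adjusted p = 0.0380, lower in 3 of 3 libraries). Its adjusted p was 0.0660 to 0.271 with any library other than WT replicate 3 left out (edgeR, log2FC -0.52 to -0.40). The cytosolic lipase genes *Pnpla2* and *Mgll* were at 116 ± 8.43 and 103 ± 5.87 CPM in *Txnip-/-* and 130 ± 16.5 and 101 ± 5.63 CPM in WT LSECs, with overlap. The sign of *Mgll* turned in 4 of 15 alternatives, among them no normalization factors (log2FC -0.06). Of the 6 genes of HDL remodelling, *Pla2g7*, the lipoprotein-bound phospholipase that macrophages secrete, fell from 17.9 ± 2.26 to 4.02 ± 0.62 CPM (log2FC -2.15 ± 0.26 SE, edgeR adjusted p = 0.000108, lower in 3 of 3 libraries). That is 22.5% of its WT level, and the macrophage marker sum, at 41.1% of its WT level, was lower too. The part of macrophage RNA in the level of *Pla2g7* was not tested. The antioxidant genes *Pon2* and *Pon3* were at 85.9 ± 2.47 and 12.1 ± 5.89 CPM in *Txnip-/-* and 96.4 ± 6.61 and 12.6 ± 2.67 CPM in WT LSECs and were not called.

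The efflux transporter genes differed less than *Apoe*. *Abca1*, which loads cholesterol onto apolipoprotein A1, lies on chromosome 4 from 53030787 to 53159895 and had 160, 165 and 140 counts in *Txnip-/-* and 255, 211 and 198 in WT libraries. The levels of 17.9, 16.8 and 14.97 CPM lay below those of 24.8, 20.1 and 20.9 CPM in WT LSECs, without overlap. Its log2FC was -0.41 (SE 0.19, range -0.47 to -0.31 with each library left out), and *Abca1* entered the calls under none of the 15 alternatives. *Abcg1* (chromosome 17, 31057675 to 31117988), which passes cholesterol to HDL particles, had 115, 119 and 92 counts against 170, 145 and 65. WT replicate 3, at 6.88 CPM, was the lowest of all 6 libraries, while WT replicates 1 and 2, at 16.5 and 13.8 CPM, were above the *Txnip-/-* libraries at 12.8, 12.1 and 9.84 CPM. Its log2FC was -0.10 (SE 0.29). It was -0.39 without WT replicate 3, 0.16 without WT replicate 1 and 8e-04 without *Txnip-/-* replicate 3. A fit with a term that sets WT replicates 1 and 2 apart gave 0.75. That fit compares the *Txnip-/-* libraries with WT replicate 3 alone. The direction of *Abcg1* thus changed with the libraries that entered. Of 13 other genes of sterol and lipid ABC transporters, 6 passed the filter, 5 of them lower, with none called, 3 lower at an unadjusted p under 0.05 in edgeR (6.05% of all genes) and a median log2FC of -0.66. *Abcg2*, a sterol and drug exporter, was at 52.9 ± 5.57 and 67.2 ± 8.48 CPM (log2FC -0.34 ± 0.13 SE, edgeR adjusted p = 0.291, lower in 3 of 3 libraries). *Abca7*, a relative of *Abca1*, was at 8.74 ± 4.92 and 15.7 ± 0.37 CPM (log2FC -0.84 ± 0.32 SE, edgeR adjusted p = 0.287, lower in 3 of 3 libraries), and *Abca5* differed by less than its spread (5.40 ± 1.38 and 5.23 ± 1.10 CPM), with a sign that turned with no normalization factors (log2FC -0.03). *Abcg5* and *Abcg8*, the sterol exporter pair of hepatocytes and gut, had 0 counts in all 6 libraries. A count of 0 allows up to 3 counts, or 0.286 to 0.335 CPM in these libraries.

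*Nr1h2*, the gene for LXR-beta, lies on chromosome 7 from 44549616 to 44553951 and had 386, 446 and 361 counts in *Txnip-/-* and 431, 406 and 506 in WT libraries. At 43.1, 45.5 and 38.6 CPM against 42.0, 38.7 and 53.5 CPM the genotypes overlapped, and the log2FC was -0.08 (SE 0.15), turning to 0.07 without WT replicate 3. *Mylip* (chromosome 13, 45389742 to 45412022 on the plus strand, 7 exons) had 424, 432 and 535 counts against 800, 899 and 817. Its levels were 47.3, 44.0 and 57.2 CPM in *Txnip-/-* and 77.9, 85.6 and 86.4 CPM in WT LSECs, without overlap. This gave a log2FC of -0.75 (SE 0.12, range -0.87 to -0.67 with each library left out), or 59.4% of the WT level. *Nr1h3*, the gene for LXR-alpha, which macrophages express and which was picked for description after its values were seen, had 13, 43 and 27 counts against 51, 98 and 58, or 2.91 ± 1.47 and 6.81 ± 2.26 CPM (log2FC -1.22 ± 0.45 SE, edgeR adjusted p = 0.280, lower in 3 of 3 libraries).

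Of the 10 genes of LXRs, their RXR partners, PPARs and corepressors, 9 passed the filter, 2 higher and 7 lower, and none was called, with 2 lower at an unadjusted p under 0.05 in edgeR (6.05% of all genes). *Ncor1*, a corepressor of LXRs, was at 359 ± 51.3 CPM in *Txnip-/-* and 425 ± 53.7 CPM in WT LSECs, and *Rxra*, the partner of LXRs on DNA, was at 72.8 ± 7.67 and 68.3 ± 3.81 CPM. The genotypes overlapped for both. Of 6 further LXR targets, 3 were higher and 3 lower, with none called, 1 lower at an unadjusted p under 0.05 in edgeR (6.05% of all genes) and a median log2 fold change of -0.04. *Lpcat3*, which remodels phospholipids, was at 109 ± 4.03 and 101 ± 13.7 CPM, *Arl4c*, a small GTPase linked to cholesterol export, at 65.2 ± 5.13 and 58.4 ± 1.20 CPM (higher in 3 of 3 libraries) and *Srebf1*, the regulator of lipid synthesis, at 30.3 ± 2.001 and 32.1 ± 6.09 CPM (adjusted p = 0.787, 0.672 and 0.912, edgeR, log2FC 0.11, 0.16 and -0.08). *Smpdl3a*, a phosphodiesterase gene that LXRs induce, was picked for description after its values were seen and had 44, 78 and 58 counts in *Txnip-/-* against 151, 135 and 95 in WT libraries. Its levels of 6.36 ± 1.52 and 12.5 ± 2.34 CPM did not overlap (log2FC -0.98 ± 0.28 SE, edgeR adjusted p = 0.116, lower in 3 of 3 libraries), and it was called without WT replicate 3 (edgeR adjusted p = 0.0474, log2FC -1.11) and in no other alternative. The signs of *Lpcat3* and *Srebf1* turned where WT replicates 1 and 2 had a term of their own (log2FC -0.06 and 0.27). In that fit WT replicate 3 alone stood for WT.

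Inside the cell, 17 genes of sterol transport, storage and oxysterol synthesis were listed and 14 passed the filter, 3 higher and 11 lower, with none called, 3 lower at an unadjusted p under 0.05 in edgeR (6.05% of all genes) and a median log2FC of -0.19. *Npc2* and *Npc1*, which pass cholesterol out of the lysosome, were at 335 ± 32.7 and 163 ± 12.8 CPM in *Txnip-/-* and 391 ± 33.5 and 174 ± 9.56 CPM in WT LSECs, with overlap for both. *Nceh1*, a cholesteryl ester hydrolase, was at 46.0 ± 1.94 and 62.0 ± 4.69 CPM (log2FC -0.43 ± 0.12 SE, edgeR adjusted p = 0.109, lower in 3 of 3 libraries) and was called only with no normalization factors (edgeR adjusted p = 0.0482, log2FC -0.51). Over all 98 listed genes outside the 10, 71 passed the filter, 24 were higher and 47 lower, and 4 were called, *Msr1*, *Lipa* and *Pla2g7* as lower and *Angptl4* as higher. The median log2 fold change of the 71 genes was -0.13, against 0.00 over all genes tested, where 0.509% were called as higher and 0.932% as lower. DESeq2 and limma-trend also called no gene in the roles that had no call.

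**Figure D5:**
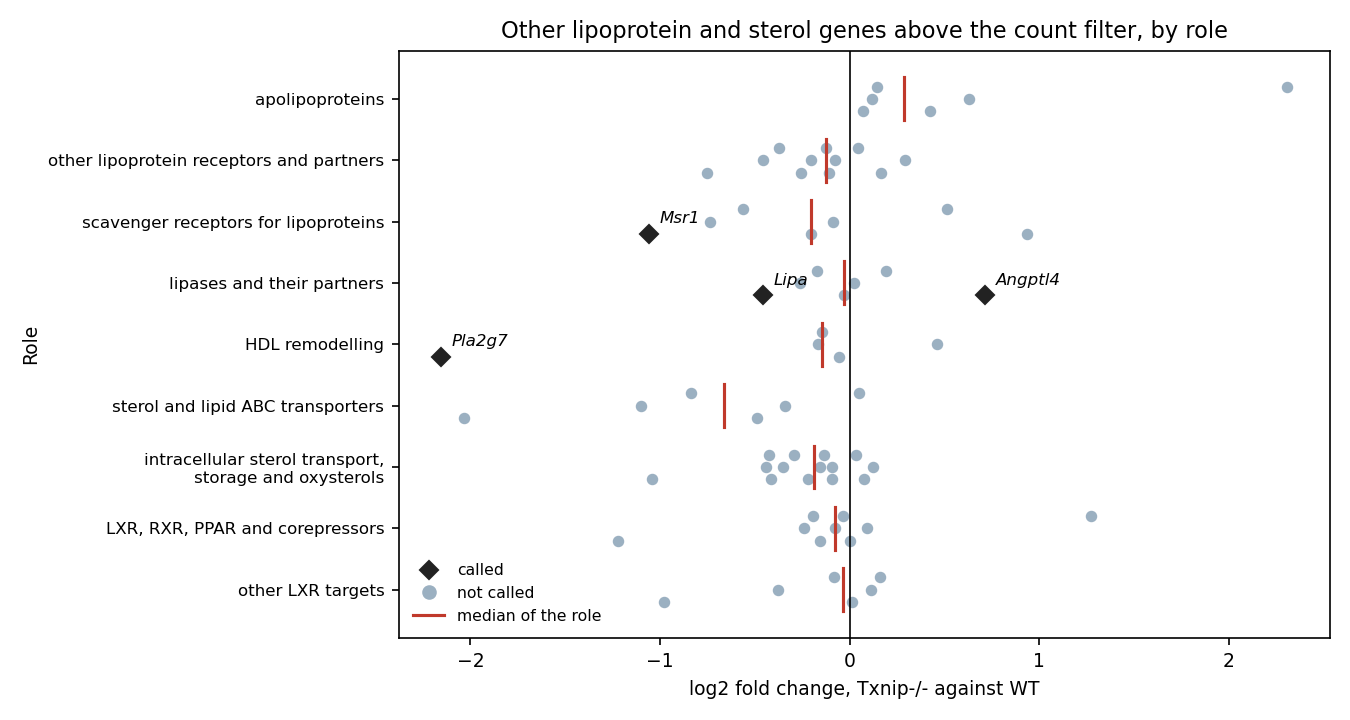
The log2 fold change (Txnip-/- against WT) of the 71 listed genes above the count filter, in 9 rows by role. Diamonds with names are the 4 called genes, circles the others, and a red line marks the median of each role, which was above 0 for the apolipoproteins (0.28) and lowest for the ABC transporters (-0.66).

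The order of the 10 levels differed between the genotypes. In WT LSECs *Apoe* was followed by *Pltp*, *Lpl*, *Mylip*, *Scarb1*, *Nr1h2*, *Lrp1*, *Abca1*, *Abcg1* and *Apoc1*, and neighbours in this order overlapped for *Lrp1* with *Abca1* and for *Abcg1* with *Apoc1*. In *Txnip-/-* LSECs *Scarb1* came after *Pltp*, and *Lpl* came after *Mylip* and overlapped with it and with *Nr1h2*, while *Lrp1* came after *Abcg1* and overlapped with *Apoc1*. To find genes with a like pattern, the Euclidean distance of centred log2 CPM over the 6 libraries was taken. Nearest to *Apoe* were *Marco* (0.18), *Cd5l* (0.20), *Lgals3* (0.22) and *Rnf128* (0.27), with log2FC from -1.07 to -0.94. Of these, *Marco* and *Cd5l* are on the macrophage list and *Lgals3* encodes galectin-3, which macrophages make. Nearest to *Abca1* were, among others, *Bach2* (0.15), *Tmem140* (0.16) and *Mxd1* (0.16), and nearest to *Mylip* were *Adgrg1* (0.13), *8430408G22Rik* (0.21), *Ptges2* (0.26) and *Lancl2* (0.26). Within the 10 genes, *Apoe* and *Mylip* were nearest to each other (0.37), as were *Lpl* and *Lrp1* (0.55) and *Scarb1* and *Nr1h2* (0.31). The distance counts the genotype difference itself, so near genes share mainly its size.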

How the data were processed

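RNA of LSECs was measured in 3 *Txnip-/-* and 3 WT libraries. The authors aligned single-end QuantSeq 3' reads with Bowtie2, and the submitters' processing notes name the build mm10. Unique and multiple alignments were assigned to genes with bedtools. The deposited values are raw whole-number counts. Versions, annotation and use of strand are not given in the sources used here. Reads with several alignments were counted, so a gene can hold reads of near-identical copies. No molecular identifiers are named, and intervals and floors therefore hold for counting error alone. At 9147764 to 10193952 counts per library, a floor of 3 counts equals 0.286 to 0.335 CPM.

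In R 4.3.3, edgeR 4.0.16 was run on the counts of all 6 libraries with filterByExpr (11583 of 23282 rows), TMM, glmQLFit and glmQLFTest, a genotype term and Benjamini-Hochberg adjusted p-values. Calls needed an adjusted p below 0.05 with a fold of more than 1.3. A standard error (SE) is the absolute log2FC divided by the square root of F. Log2 CPM used a prior count of 2. Alternatives were DESeq2 1.42.0, limma-trend (limma 3.58.1), RLE or no normalization factors, no filter on low counts, a replicate block, each library left out, *Rn45s* left out, a term for WT replicates 1 and 2, and no limit on the fold change. The fits were tested on simulated data. The term for WT replicates 1 and 2 leaves WT replicate 3 as the only WT library behind the genotype term. The 10 genes, the lists and the alternatives were chosen with earlier results of these data known. Genes named were the 10, every called gene of the pathway list and the 3 of highest level per role, with *Gpihbp1*, *Nr1h3*, *Smpdl3a*, *Lmf1*, *Abcg5*, *Abcg8*, *Ctsa* and *Clec4f* added after their values were seen, called or highest genes of the macrophage, hepatocyte and LSEC lists, and the 4 genes of nearest pattern. Some genes that this rule names are not reported here. Gene positions came from GENCODE M21 (GRCm38, which is mm10) and promoters from RefSeq.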

Additional observations from a re-analysis of the deposited data

How the results depend on the processing

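All 10 genes had a log2FC below 0 in the main result and in every alternative but 4 (without *Txnip-/-* replicate 3, without WT replicate 1, without WT replicate 3 and with a term for WT replicates 1 and 2), where 9 did. The calls of *Apoe*, *Lpl*, *Mylip* and *Lrp1* were present in all 15. The number of these 10 genes called was 4 or 5 throughout. The number of genes called in all was 167, with 108 lower and 59 higher. That split was 145 and 35 with no normalization factors, where the median log2FC of all genes was -0.08. The total was 252 with DESeq2, 301 with no filter on low counts, 108 with the replicate block and 89 to 301 with each library left out, where WT replicate 3 gave the 301. Of 98 listed pathway genes, 4 were called. Their number was 2 with the replicate block and 2 to 6 with each library left out, where WT replicate 3 gave the 6. *Msr1* and *Pla2g7* were called in all 15, and *Lipa* and *Angptl4* in 8, of which 1 was among the 6 fits with a library left out. Each of these tallies includes the setting with no limit on the fold change, which keeps every main call by construction. No sign was seen that replicate numbers pair the libraries, though 3 libraries per genotype cannot exclude it. Correlations between the genotypes of what remained after subtracting group means were -0.03, 0.017 and -0.047 for numbers 1, 2 and 3, and the replicate block changed the call of *Lipa* and *Angptl4* (log2FC -0.46 and 0.72, adjusted p = 0.103 and 0.0532, edgeR) and of no other gene among the 10 and the named pathway genes.

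Signs turned for genes near 0. *Abcg1* was 0.75 where WT replicates 1 and 2 had their own term and -0.39 to 0.16 with each library left out. With that term, the *Txnip-/-* libraries are compared with WT replicate 3 alone. *Nr1h2* was -0.17 to 0.072 with each library left out. With a term for WT replicates 1 and 2, *Abca5* was -0.18, *Clu* -0.18, *Lpcat3* -0.059, *Mgll* -0.038, *Scarf1* 0.11, *Gpihbp1* 0.031 and *Srebf1* 0.27. With no normalization factors *Abca5* was -0.029, *Clu* -0.0093 and *Mgll* -0.057. With each library left out, *Apoc2* was -0.16 to 0.37, *Abca5* -0.17 to 0.20, *Mgll* -0.028 to 0.055, *Pon3* -0.44 to 0.26, *Scarf1* -0.18 to 0.0081, *Srebf1* -0.23 to 0.0046, *Clu* -0.012 to 0.21 and *Gpihbp1* -0.14 to 0.062. The cause was not tested. At this depth a count of 0 allows up to 3 counts, or 0.286 to 0.335 CPM.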
